A study of Mus musculus with 6 samples.

Results

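The glutathione and thioredoxin redox genes were taken as all rows whose symbol names a glutathione S-transferase, microsomal glutathione transferase, glutathione peroxidase, peroxiredoxin, thioredoxin, thioredoxin reductase or glutaredoxin, together with Gss, Gclc, Gclm, Gsr, Txnip, Sod1, Sod2, Cat, Nqo1, Nfe2l2, Keap1 and Srxn1. The rule found 60 genes among the 35869 listed in each library. Glutathione and thioredoxin are the main thiol systems with which cells remove peroxides and attach or detach reactive molecules. Glutathione is made by glutamate-cysteine ligase and glutathione synthetase, kept reduced by glutathione reductase, spent by glutathione peroxidases and attached to other molecules by glutathione S-transferases, while thioredoxin and thioredoxin reductase return electrons to the peroxiredoxins. The transcription factor NRF2, which the adaptor KEAP1 holds at a low level in unstressed cells, acts on many of these genes through a short DNA sequence called the antioxidant response element, and myeloid cells, which can make large amounts of reactive oxygen, express many of them at high levels.

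RNA with poly(A) tails was sequenced from cultured mouse leukaemia cells. Their transforming oncogene was MLL-AF9, a fusion found in human acute myeloid leukaemia, delivered by retrovirus. All cells, controls included, carried loxP-flanked (floxed) Chaf1b alleles and the ligand-dependent recombinase CreERT2, and grew with SCF, IL6 and IL3. The 3 KO libraries came from cells given B-estradiol, which activates the recombinase, and the 3 WT libraries from cells given ethanol as vehicle; the WT cells are thus floxed, CreERT2-bearing controls. RNA was taken 48 hours after induction, and the labels give neither the number of clones nor whether replicates were separate cultures. The p-values thus measure only how far these samples spread, which may be technical. Since every KO library and no WT library had received the ligand, the effect of B-estradiol and that of the deletion cannot be told apart.

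Chaf1b, a subunit of the histone chaperone CAF-1, checks the labels: its level was 17.7, 14.4 and 14.2 TPM in the KO libraries (replicates 1, 2 and 3, the order used throughout), and 48.6, 49.0 and 50.6 TPM in the controls. TPM is transcript abundance per transcript length, as a share of a fixed library total. TPM does not retain sequencing depth, so the counting error of each value is unknown. The deleted exons are not named in the sources, so remaining Chaf1b reads may come from outside them. All 11 markers fixed for the leukaemia cells passed the filter on low values, with 3 called higher and 1 lower. Ptprc, Kit and Meis1 were not called, and Hoxa9 was the gene called lower. The 3 called higher were the granule protein genes Mpo, Ctsg and Elane, which made up most of the summed level in every library. The sums were 8036.9 to 10802.1 TPM in KO and 5166.3 to 5696.0 TPM in WT. Mpo alone was at 1017.6, 2311.4 and 2232.8 TPM in KO against 19.4, 127.6 and 83.8 TPM in WT. KO replicate 1 and WT replicate 1 stood apart from the rest of their groups. Only for WT replicate 1 does the deposited column name include the word replace, and what was replaced is not stated. Across genes, which are no independent replicates, Pearson's r of log2(TPM + 1) was 0.998 for the second and the third KO library and also for the second and the third WT library. It was 0.991 for the first and the second KO library and 0.984 for the first and the second WT library. Counts of called redox genes are therefore also given without the first replicates.

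The redox genes moved in both directions, with more of them called higher than lower. A gene was tested where 3 or more libraries had 1 TPM or more, as 48 of the 60 did. The other 12 stayed at or below 0.6 TPM in every library. Gstt1, one of the genes called higher, met this filter only through its KO libraries, so it could enter the test only by being high in KO. At a limma adjusted p under 0.05, 16 of the 48 (33.3%) were higher and 4 (8.33%) lower in KO, where over all 13575 tested genes 12.9% were called higher, 6.11% lower and 19.0% in either direction. Where the mean over all libraries was 10 TPM or more, the counts were 12 higher (30.0%) and 4 lower among 40 redox genes, while 8.47% and 9.29% of all 8135 such genes were called higher and lower. The median difference of the 48 genes was 0.12 on the log2(TPM + 1) scale, on which all differences below are given, against 0.01 over all tested genes. The KO values lay wholly above the WT values for 20 of the 48 genes and wholly below for 10, where the shares over all tested genes were 23.4% and 19.5% (42.8% together). Quantile normalization gave 16 higher and 4 lower redox genes, 17 of the 20 calls being the same, while over all genes it gave 9.92% higher and 12.7% lower.

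These calls needed KO replicates 2 and 3 and WT replicates 2 and 3. Without any single one of these 4 libraries limma called 0 of the 48 genes, although each of the 20 called genes kept its direction and an unadjusted p under 0.05. At that unadjusted level 18 of the 48 redox genes were higher and 9 lower without KO replicate 2 (14.8% and 8.96% over all tested genes), and 17 and 7 without KO replicate 3 (16.2% and 8.66%). They were 19 and 9 without WT replicate 2 (17.4% and 10.8%), and 17 and 10 without WT replicate 3 (17.1% and 11.5%). At the adjusted threshold the same fits called, over all tested genes, 0.781% higher and 0.0221% lower without KO replicate 2, 0.0% and 0.0% without KO replicate 3, 0.169% and 0.0147% without WT replicate 2, and 0.103% and 0.00737% without WT replicate 3. Without KO replicate 1 the count was 19 higher and 10 lower (15.2% and 11.9% over all genes). It was 20 and 7 without WT replicate 1 (21.6% and 14.2%) and 24 and 14 without both (28.4% and 27.3%). Counts for single roles below are to be read against the all-gene shares of the same fit. In the reported fit these were 12.9% higher and 6.11% lower. In all 16 genes called higher KO replicate 1 had the lowest KO value, and in all 4 genes called lower it had the highest. It thus lay nearest to the controls each time. With the replicate number as a block in the limma fit, only 2 of the 20 calls remained (adjusted p up to 0.137). That fit called 2.21% of all tested genes higher and 0.243% lower. Other settings ended single calls: Gstm3, Gstt3, Mgst2, Mgst3, Prdx1 and Prdx3 were lost without the filter on low values (limma adjusted p from 0.0511 to 0.0652), Gstm3, Gstt1 and Prdx3 under quantile normalization, Gsto1, Prdx1, Prdx3, Prdx6 and Txn2 in a limma fit with no mean-variance trend, and Prdx1 without WT replicate 1.

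**Figure D1:**
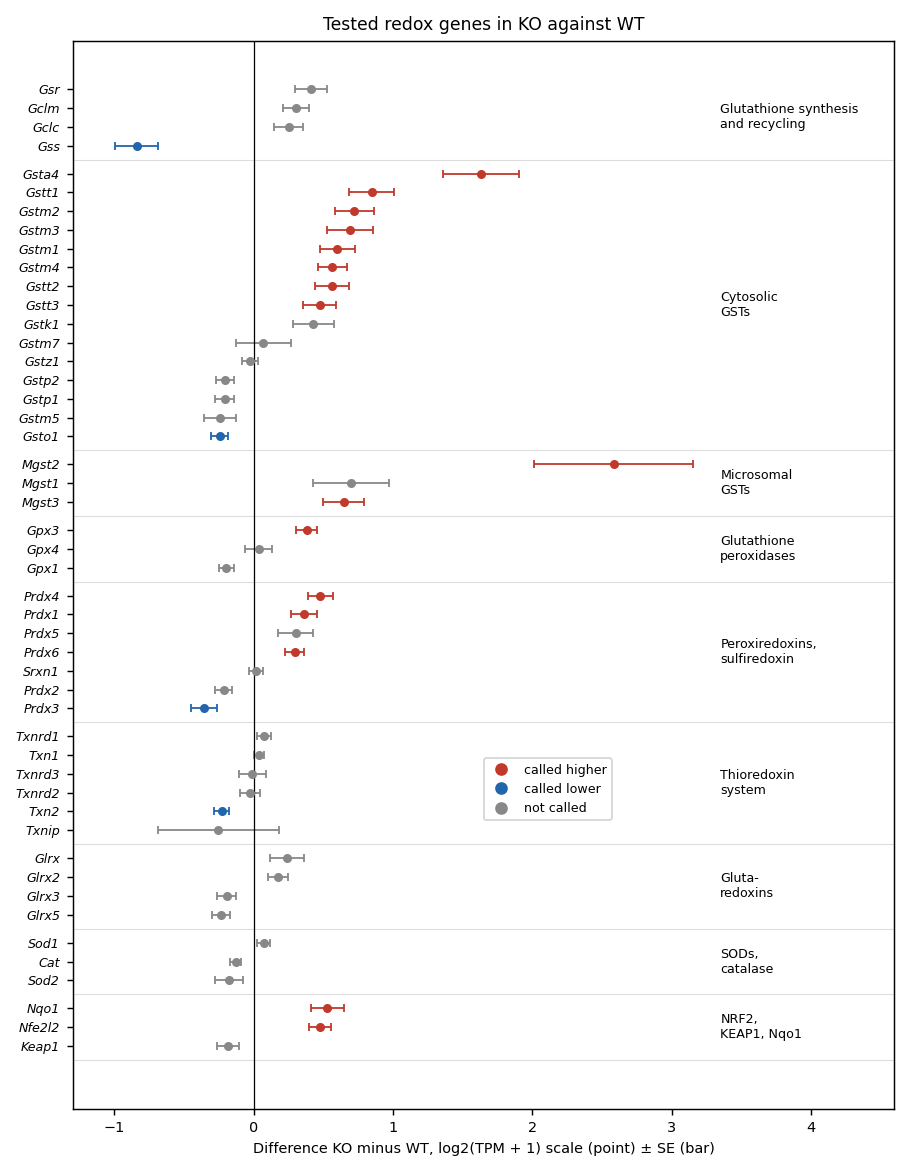
Difference between KO and WT on the log2(TPM + 1) scale (x axis; point, limma estimate; bar, SE) for the 48 tested redox genes (y axis), grouped by role; red marks the 16 genes called higher and blue the 4 called lower at an adjusted p under 0.05. The transferases Mgst2 (2.58) and Gsta4 (1.63) lie farthest to the right and the synthetase gene Gss (-0.84) farthest to the left.

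Of the genes that make and recycle glutathione, only the one for the last step of synthesis was called, and it fell. Gss encodes glutathione synthetase, which joins glycine to gamma-glutamylcysteine (mm10 chromosome 2, 155563181 to 155592810). It was at 11.7, 7.9 and 8.0 TPM (KO) against 18.8, 16.6 and 15.7 TPM (WT). No KO value reached the lowest WT value. The means were 9.20 ± 2.17 TPM (KO; SD, n = 3) and 17.0 ± 1.59 TPM (WT), a ratio of 0.540. The difference was -0.84 (SE 0.15, limma adjusted p = 0.022). Exons of Acss2 and of 2 antisense genes on the opposite strand cover 6.68%, 6.51% and 5.44% of the Gss exon bases in GENCODE M21, and since the sources used here do not say whether counting used strand, a small part of its value is uncertain.

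The other 3 genes of this role had higher KO means and missed the threshold, while all 3 were called higher without both first replicates. In that fit 28.4% of all tested genes were called higher. Gsr, glutathione reductase, which restores glutathione from its oxidized form with NADPH, was at 758.7, 988.7 and 958.7 TPM in KO against 734.5, 653.0 and 636.4 TPM in WT (difference 0.41, SE 0.11, limma adjusted p = 0.051). Its groups did not overlap, but the first replicates of both groups lay close together. Gclm, the modifier subunit of glutamate-cysteine ligase, was at 230.0, 286.4 and 271.6 TPM (KO) against 209.9, 224.9 and 200.5 TPM (WT), again without overlap (difference 0.30, SE 0.09, limma adjusted p = 0.063). Gclc, the catalytic subunit of the same ligase, overlapped between the groups, at 31.3 ± 2.82 TPM (KO; SD, n = 3) against 26.2 ± 2.95 TPM (WT). Without KO replicate 1 both Gsr (limma adjusted p = 0.0081) and Gclm (0.012) were called higher; over all alternatives the adjusted p ran from 7.32e-05 to 0.181 for Gsr and from 0.00047 to 0.207 for Gclm.

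Glutathione S-transferases, which couple glutathione to reactive molecules, held the largest group of changes. Of 21 cytosolic and related genes named in this way 15 were tested; 8 were higher, 1 was lower and 6 were not called, with a median difference of 0.47. Without the first replicates of both groups 10 were higher and 4 lower, where 28.4% and 27.3% of all tested genes were called. Summed over the 21 genes, these transcripts made up 1700.3, 2002.5 and 1968.8 TPM in KO replicates 1, 2 and 3 and 1682.7, 1537.0 and 1534.5 TPM in WT replicates 1, 2 and 3. KO replicate 1 thus lay only just above WT replicate 1 in the sum, and the plot of summed TPM by role shows this library between the other KO libraries and the controls.

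The mu-class genes lie in a cluster on chromosome 3, and the 4 neighbours at one end of it were called higher. From Gstm3 through Gstm2 and Gstm1 to Gstm4 they span bases 107963696 to 108045179 of mm10. Gstm1, the most abundant, was at 456.3, 621.8 and 627.6 TPM (KO) against 382.7, 365.0 and 365.7 TPM (WT). All KO values exceeded all WT values, and the ratio of means was 1.53 (difference 0.60, SE 0.13, limma adjusted p = 0.028). Gstm2 was at 387.3, 540.3 and 513.4 TPM (KO) against 323.4, 276.6 and 266.7 TPM (WT), a ratio of 1.66 (difference 0.72, SE 0.14, limma adjusted p = 0.024). Gstm4, at 23.7, 28.5 and 27.8 TPM against 19.9, 16.1 and 17.2 TPM, and the weakly expressed Gstm3, at 2.6, 4.6 and 3.6 TPM against 1.9, 1.8 and 1.7 TPM, also had groups that did not overlap, with differences of 0.56 and 0.69 (limma adjusted p = 0.022 and 0.036). The named genes at the other end of the cluster were not called or not tested. Gstm5 was at 28.2 ± 3.78 TPM (KO; SD, n = 3) against 33.5 ± 3.54 TPM (WT) and Gstm7 at 3.70 ± 0.20 and 3.60 ± 1.39 TPM, and Gstm6 stayed at or below 0.1 TPM. Whether the neighbours differ from Gstm5 and Gstm7 in their response was not tested.

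Since these 4 genes were all called higher, the 60 bases just before an annotated start of each (RefSeq, GRCm38.p6, minus strand of chromosome 3, read 5′ to 3′) are shown to let their starts be compared. Gstm1 and Gstm4 have 2 such starts each, of which the one farther upstream is shown; that of Gstm4 lies inside the span given for the gene.
Gstm3: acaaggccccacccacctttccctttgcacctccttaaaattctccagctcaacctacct
Gstm2: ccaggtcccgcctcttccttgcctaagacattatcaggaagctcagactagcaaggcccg
Gstm1: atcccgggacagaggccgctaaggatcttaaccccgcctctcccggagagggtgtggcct
Gstm4: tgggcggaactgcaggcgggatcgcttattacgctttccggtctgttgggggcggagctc
They lie at chr3:107969175-107969234, chr3:107986421-107986480, chr3:108017974-108018033 and chr3:108044860-108044919. In the 250 bases before all these starts no run of 12 bases was shared between any pair of these 4 genes. Among stretches of 100 bases, the read length, in their protein-coding transcripts in GENCODE M21, 13.8% for Gstm3 and 6.17% for Gstm1 occur also in transcripts of other genes, so the value of Gstm3 in particular is uncertain, because reads from such stretches cannot be assigned to 1 gene.

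The theta-class genes on chromosome 10 rose as well, from lower levels. Gstt3 was at 29.4, 34.6 and 33.5 TPM in KO against 26.8, 19.8 and 23.1 TPM in WT (ratio 1.40, difference 0.47, SE 0.12, limma adjusted p = 0.042). Gstt2 was at 7.9, 9.3 and 8.7 TPM in KO against 6.7, 4.9 and 5.1 TPM in WT (ratio 1.55, limma adjusted p = 0.030). Gstt1 was at 1.0, 2.0 and 1.3 TPM in KO against 0.4, 0.3 and 0.3 TPM in WT (difference 0.85, SE 0.16, limma adjusted p = 0.023). Gstt1 reached 1 TPM in no WT library and passed the filter only through KO, so its call is no independent support for a rise. None of these groups overlapped, but the call of Gstt1 rests on values near the rounding step and ended under quantile normalization (difference 0.28, limma adjusted p = 0.255, the highest over all its alternatives, of which the lowest was 0.00021). The annotated model Gm20441 shares 18.1% of the 100-base stretches of Gstt3, and the split of reads between them is uncertain. Gstt4 stayed at or below 0.2 TPM.

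Gsta4, whose enzyme acts on the lipid peroxidation product 4-hydroxynonenal, showed the largest difference of the cytosolic transferases (chromosome 9, 78191966 to 78209349). Its values were 4.7, 10.9 and 7.8 TPM in KO and 1.5, 2.2 and 1.5 TPM in WT, so that even the lowest KO library lay above every control, with a ratio of means of 4.50 (difference 1.63, SE 0.27, limma adjusted p = 0.017). Its relatives Gsta1, Gsta2 and Gsta3 were at or below 0.1 TPM in every library.

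Transferases of other classes went down or were not called. Gsto1, an omega-class enzyme that reduces dehydroascorbate, fell to 329.0, 288.4 and 295.6 TPM in KO, compared with 354.1, 368.8 and 357.9 TPM in WT (ratio 0.845, difference -0.24, SE 0.06, limma adjusted p = 0.039). Gstp1 and Gstp2, the pi-class pair on chromosome 19, averaged 302 ± 2.79 and 82.7 ± 2.82 TPM in the KO libraries (SD, n = 3), and 351 ± 29.8 and 95.6 ± 7.13 TPM in the controls, with no overlap in either gene, and missed the threshold (limma adjusted p = 0.068 and 0.073). Of the 100-base stretches of Gstp1, 38.4% occur also in Gstp2, so their separate values are uncertain. Gstk1, a mitochondrial and peroxisomal enzyme, was at 32.6 ± 5.93 TPM (KO) against 23.8 ± 2.84 TPM (WT) with overlapping values, and Gstz1, which takes part in tyrosine breakdown, was at 6.63 ± 0.12 and 6.77 ± 0.12 TPM.

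**Figure D2:**
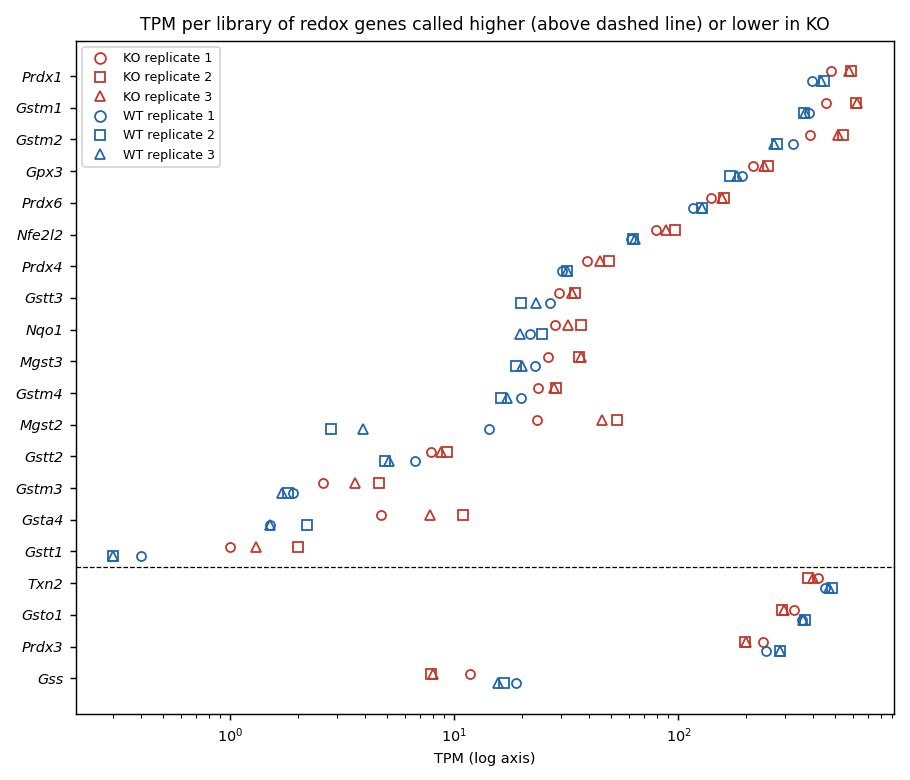
TPM in each library (x axis, log scale; red, KO; blue, WT; circle, square and triangle, replicates 1, 2 and 3) for the 16 redox genes called higher, above the dashed line, and the 4 called lower, below it. The KO and WT symbols do not overlap in any of the 20 rows, and the KO circle is always the KO symbol closest to the WT symbols.

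Microsomal glutathione transferases are unrelated membrane enzymes, and Mgst2 had the largest difference of all 48 genes. Mgst2, which also makes leukotriene C4 (chromosome 3, 51636912 to 51682675), was at 23.3, 53.1 and 45.8 TPM (KO) against 14.3, 2.8 and 3.9 TPM (WT). The controls were far apart here, with WT replicate 1 closer to KO replicate 1 than to the other controls. No values overlapped, and the ratio of means was 5.82 (difference 2.58, SE 0.57, limma adjusted p = 0.031). Leaving out WT replicate 1 and KO replicate 1 together gave a difference of 3.54. Mgst3 was at 26.1, 36.1 and 36.9 TPM in KO against 22.8, 18.9 and 20.0 TPM in WT (ratio 1.61, difference 0.65, SE 0.15, limma adjusted p = 0.033). Mgst1, at 94.4, 132.6 and 121.8 TPM against 108.3, 54.5 and 59.4 TPM, overlapped through WT replicate 1 and was not called (limma adjusted p = 0.116); without that library it was called higher (difference 1.00, limma adjusted p = 0.019; range over all alternatives 9.36e-05 to 0.32).

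Markers of maturing myeloid cells were also higher in KO. The marker counts here are to be read against 12.9% higher and 6.11% lower over all tested genes. Those without both first replicates are to be read against 28.4% and 27.3%. Of 12 late granulocyte markers 9 were tested and 5 were higher, 0 lower (9 and 0 without both first replicates); their summed level was 686.2 to 1548.2 TPM in KO and 119.0 to 489.3 TPM in WT, with the highest WT sum in replicate 1. That library was far above the other controls in Ly6g, Cxcr2, Mmp8, Mmp9, Ngp and Lcn2, of which Lcn2 was called, and close to them in the called markers Camp, S100a8 and Cd177. In S100a9, also called, it was at 21.4 TPM against 12.2 and 12.7 TPM in WT replicates 2 and 3. Of 10 monocyte and macrophage markers 8 were tested and 5 were higher (7 without both first replicates), with sums of 1980.7 to 2705.4 TPM in KO and 1463.7 to 1609.9 TPM in WT. Markers of erythroid cells, which are rich in catalase and peroxiredoxin, summed to 255.0 to 265.9 TPM in KO and 248.3 to 272.5 TPM in WT, with 3 of 7 tested genes higher and Slc4a1 at 0 in every library. Most of this sum was the transferrin receptor gene Tfrc, which growing cells of many types express; without it, a choice made after seeing the values, the sums were 35.6 to 61.9 TPM in KO and 17.6 to 22.6 TPM in WT. In lists for other cell types the sums were 25.9 to 54.3 TPM in KO and 7.7 to 15.3 TPM in WT for megakaryocytes (2 of 3 tested genes higher), 89.8 to 151.0 and 52.0 to 65.6 TPM for mast cells, basophils and eosinophils (3 of 5 higher, Fcer1a and Il5ra at 0), 173.1 to 263.1 and 103.4 to 118.9 TPM for lymphocytes (3 of 3 higher, Cd4, Cd8a and Ms4a1 at 0), and 103.8 to 167.8 and 75.9 to 100.9 TPM for stromal and endothelial cells (2 of 4 higher, Kdr at 0). Pf4 in the megakaryocyte list, Cd79a in the lymphocyte list and Col1a1 in the stromal list, all called higher, reached 1 TPM in no WT library. They were tested only through their KO libraries, so their calls are no independent support for a rise. Gata1 in the erythroid list, also called higher, was at 1.4, 0.8 and 1.1 TPM in WT and needed its KO libraries to pass the filter. The part of these cell types in the redox results was not tested. In bulk RNA a change in the number of cells of a type cannot be told apart from a change in RNA per cell.

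**Figure D3:**
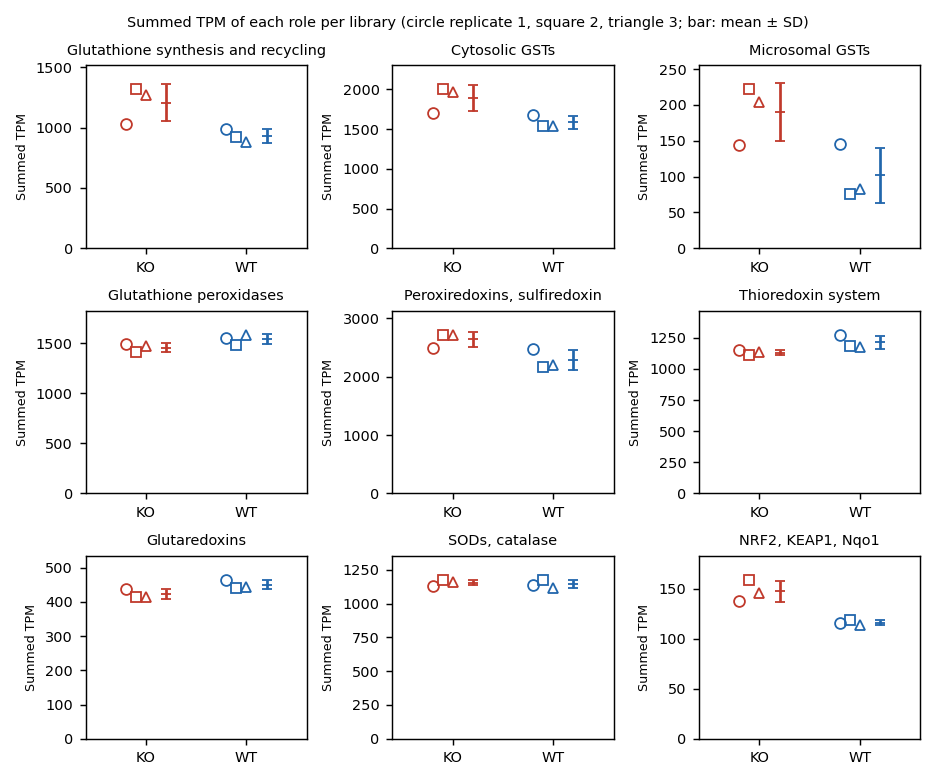
Summed TPM (y axis, from 0) of the genes of each role in the 3 KO libraries (red) and 3 WT libraries (blue), with circle, square and triangle for replicates 1, 2 and 3 and bars for the mean ± SD. For microsomal transferases KO replicate 1 (143.8 TPM) and WT replicate 1 (145.4 TPM) coincide, while the sums of superoxide dismutases and catalase lie between 1119.5 and 1176.5 TPM in all 6 libraries.

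Glutathione peroxidases, which reduce peroxides with glutathione, were called in 1 of 3 tested genes. Gpx3, the secreted selenoenzyme of plasma, rose to 215.8, 251.8 and 241.4 TPM in KO, compared with 191.2, 169.1 and 183.0 TPM in WT (ratio 1.30, difference 0.38, SE 0.08, limma adjusted p = 0.025). Gpx1, the main cytosolic enzyme and by far the most abundant of the family, was at 1044.7, 935.5 and 1007.6 TPM (KO) against 1105.7, 1125.5 and 1189.1 TPM (WT). All its KO values were below all WT values, but it missed the threshold (difference -0.20, SE 0.05, limma adjusted p = 0.053) and was called lower without KO replicate 1 (0.035) or without WT replicate 1 (0.041; range over all alternatives 0.00074 to 0.165). Gpx4, which removes lipid peroxides from membranes and so holds back ferroptosis, overlapped between the groups, at 226 ± 3.11 TPM (SD, n = 3) in KO against 222 ± 31.3 TPM in WT (limma adjusted p = 0.82). Of the 100-base stretches of Gpx4, 40.8% occur also in its pseudogene Gpx4-ps2, which makes its value uncertain. The remaining 6 of the 9 genes, Gpx2, Gpx2-ps1, Gpx5, Gpx6, Gpx7 and Gpx8, stayed below the filter.

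Peroxiredoxins, which reduce hydrogen peroxide through a reactive cysteine, split by gene: 3 rose and 1 fell. Without both first replicates 4 were higher and 2 lower, where 28.4% and 27.3% of all tested genes were called. Prdx1, an abundant cytosolic member, was at 477.5, 586.2 and 578.8 TPM in KO against 395.7, 444.3 and 433.8 TPM in WT (ratio 1.29, difference 0.36, SE 0.09, limma adjusted p = 0.044). Prdx4, the member of the endoplasmic reticulum, was at 38.9, 48.8 and 44.8 TPM in KO against 30.1, 31.9 and 31.8 TPM in WT (ratio 1.41, difference 0.48, SE 0.09, limma adjusted p = 0.022). Prdx6, which uses glutathione and also has phospholipase activity, was at 139.4, 160.2 and 156.8 TPM in KO against 116.4, 127.3 and 127.6 TPM in WT (ratio 1.23, limma adjusted p = 0.038). In each of these 3 genes the lowest KO value exceeded the highest WT value.

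Prdx3, the mitochondrial member, went the other way, to 238.0, 197.6 and 199.6 TPM in KO, compared with 247.0, 283.7 and 282.8 TPM in WT (ratio 0.781, difference -0.36, SE 0.09, limma adjusted p = 0.046). The first replicates of both groups lay close together, and the others further apart. Prdx5, the most abundant of the 60 genes, overlapped because of WT replicate 1, at 1392.7, 1530.0 and 1534.9 TPM in KO against 1466.8, 1067.2 and 1117.8 TPM in WT (limma adjusted p = 0.13). It was called higher without that library (difference 0.44, limma adjusted p = 0.019; range over all alternatives 0.00011 to 0.318). Exons of Trmt112 on the opposite strand cover 19.1% of its exon bases, so its value is uncertain. Prdx2, the member known from red cells, was at 120 ± 7.28 TPM (SD, n = 3) in KO against 139 ± 5.60 TPM in WT (limma adjusted p = 0.054), and Srxn1, the sulfiredoxin that repairs overoxidized peroxiredoxins, was at 76.1 ± 3.09 and 75.3 ± 1.76 TPM (0.87).

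In the thioredoxin system 1 of 6 genes was called. Txn2, the mitochondrial thioredoxin, fell to 418.8, 380.2 and 399.5 TPM in KO, compared with 449.9, 483.4 and 471.6 TPM in WT (ratio 0.853, difference -0.23, SE 0.05, limma adjusted p = 0.034), with no overlap. Txn1, the cytosolic thioredoxin, was at 526.2, 525.9 and 540.4 TPM (KO) against 522.7, 515.7 and 514.0 TPM (WT); the KO values were all higher, with a ratio of means of 1.03 (difference 0.04, SE 0.03, limma adjusted p = 0.48). The 3 thioredoxin reductases, which pass electrons from NADPH to thioredoxin, overlapped between the groups: Txnrd1 at 65.1 ± 2.69 TPM (KO; SD, n = 3) against 61.8 ± 1.87 TPM (WT), Txnrd2 at 57.7 ± 4.23 and 58.7 ± 3.50 TPM, and Txnrd3 at 5.53 ± 0.32 and 5.60 ± 0.72 TPM. Txnip, the thioredoxin inhibitor, was at 83.1, 70.5 and 65.9 TPM (KO) against 180.2, 53.2 and 68.4 TPM (WT), with WT replicate 1 above every other library, and was not called (limma adjusted p = 0.70).

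None of the 4 glutaredoxins, small glutathione-dependent thiol oxidoreductases, was called by limma, and 3 had an unadjusted p under 0.05. Glrx5, which works in mitochondrial iron-sulfur cluster assembly, was at 227.7, 195.4 and 199.7 TPM (KO) against 243.1, 243.7 and 244.4 TPM (WT), without overlap (difference -0.23, SE 0.07, limma adjusted p = 0.053), and was called lower without KO replicate 1 (0.0062; range over all alternatives 0.00017 to 0.187). Glrx, the cytosolic enzyme, was at 120.7, 135.1 and 131.2 TPM (KO) against 131.7, 97.1 and 100.8 TPM (WT), overlapping through WT replicate 1 (limma adjusted p = 0.197), and without that library it was called higher (0.020; range 0.00022 to 0.437). Glrx2 was at 7.43 ± 0.51 TPM (KO; SD, n = 3) against 6.47 ± 0.15 TPM (WT), and Glrx3 at 78.1 ± 4.82 and 89.4 ± 5.33 TPM.

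The first-line enzymes against superoxide and hydrogen peroxide were not called either; 1 of the 3 had an unadjusted p under 0.05. Sod2 was called lower without KO replicate 1, and Sod2 and Cat without both first replicates, where 27.3% of all tested genes were called lower. Sod1, the cytosolic superoxide dismutase, was at 813.3, 877.0 and 869.7 TPM in KO against 806.6, 838.9 and 790.3 TPM in WT (difference 0.07, SE 0.05, limma adjusted p = 0.30). Cat, catalase, was at 213.5, 210.7 and 206.4 TPM (KO) against 235.1, 231.4 and 223.2 TPM (WT), lower in every KO library, with a ratio of means of 0.914 (limma adjusted p = 0.072). Sod2, the mitochondrial dismutase, was at 91.4 ± 12.7 TPM (SD, n = 3) in KO against 103 ± 5.20 TPM in WT (limma adjusted p = 0.24).

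Nfe2l2, which encodes NRF2, rose, as did Nqo1, a quinone reductase widely used as an NRF2 target. Nfe2l2 (chromosome 2, 75675513 to 75704663) was at 79.3, 96.2 and 87.8 TPM (KO) against 61.2, 62.6 and 64.1 TPM (WT), with all KO values above all WT values (ratio 1.40, difference 0.48, SE 0.08, limma adjusted p = 0.016). Nqo1 (chromosome 8, 107388225 to 107403205) was at 28.2, 36.6 and 32.1 TPM in KO against 21.8, 24.7 and 19.7 TPM in WT (ratio 1.46, difference 0.53, SE 0.12, limma adjusted p = 0.033). Keap1 was at 30.7, 26.3 and 26.0 TPM (KO) against 33.0, 31.2 and 30.4 TPM (WT), overlapping through KO replicate 1, and was not called (difference -0.19, SE 0.08, limma adjusted p = 0.139; called lower without KO replicate 1 at 0.029, range 0.0018 to 0.373). The mRNA level says nothing on the amount of NRF2 protein, which KEAP1 controls.

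Promoter sequences were searched for the core of the antioxidant response element, TGACNNNGC, on both strands of RefSeq windows (GRCm38.p6) that run from 250 bases before to 50 after each start. The element was in a window of 10 of the 54 redox genes that have one (18.5%), against 14.0% of all genes and 12.4% of all windows. Among redox genes called higher it was in 2 of 13 (15.4%), Prdx1 and Nfe2l2, among those called lower in 0 of 4, and among tested genes not called in 7 of 26 (26.9%). The matches of Prdx1 and Nfe2l2 are shown with those of 3 genes that were not called, Gclm, Mgst1 and Txnrd1, with the element in capitals on the gene's strand; in all but Nfe2l2 the capitals are the reverse complement of the core.
Prdx1: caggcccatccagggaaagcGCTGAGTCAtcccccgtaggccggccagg
Nfe2l2: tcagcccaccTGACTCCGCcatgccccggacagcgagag
Gclm: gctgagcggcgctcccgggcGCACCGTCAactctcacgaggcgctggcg
Mgst1: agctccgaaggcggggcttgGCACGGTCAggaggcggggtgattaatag
Txnrd1: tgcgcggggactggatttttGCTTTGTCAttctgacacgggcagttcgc
They lie at chr4:116685446-116685494 (plus strand), chr2:75704875-75704913 (minus strand), chr3:122245403-122245451, chr6:138140451-138140499 and chr10:82859094-82859142 (plus strand). A match in these letters is a description of the window and shows no binding. The other genes with a match were Srxn1, Gstm5, Gstm7, Sod1 and Gsta3.

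Genes that work with these systems were compared through 6 lists of 127 genes, of which 113 were tested. Of these, 13 were higher (11.5%) and 9 lower (7.96%), near the shares over all genes, with a median difference of -0.02. Without KO replicate 2 or 3 or WT replicate 2 or 3 limma called 0 of them, while 14, 16, 18 and 20 of the 113 were higher and 14, 14, 23 and 19 lower at an unadjusted p under 0.05, where the shares of all tested genes ran from 14.8% to 17.4% higher and from 8.66% to 11.5% lower. Without KO replicate 1 and WT replicate 1 together limma called 33 higher and 34 lower, near the 28.4% and 27.3% of all genes in that fit. The counts without both first replicates that follow for each list are to be read against these 2 shares, and the others against 12.9% higher and 6.11% lower.

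Known NRF2 targets outside the families above were called higher in 4 of 18 tested genes and lower in 0, and without both first replicates in 10 and 0. Slc48a1, a haem transporter, rose to 456 ± 27.5 TPM against 372 ± 18.3 TPM in WT (SD, n = 3; limma adjusted p = 0.029), and Ephx1, an epoxide hydrolase, to 2.53 ± 0.93 TPM against 0.333 ± 0.15 TPM in WT (0.016). Cbr3, a carbonyl reductase, rose to 1.33 ± 0.21 TPM against 0.367 ± 0.12 TPM in WT (0.015). Ephx1 and Cbr3 reached 1 TPM in no WT library. They passed the filter only through KO, so their calls are no independent support for a rise. Of 12 regulators of NRF2 tested, 1 was lower and 0 higher (3 and 1 without both first replicates). The gene was Nfe2l1, the related factor that acts on proteasome genes, at 31.1 ± 3.93 TPM in KO against 41.9 ± 4.39 TPM in WT (limma adjusted p = 0.047).

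Genes of cysteine supply and glutathione turnover were called lower in 3 and higher in 1 of 17, with a median difference of -0.22; without both first replicates the counts were 9 and 2. Slc25a39, the carrier that brings glutathione into mitochondria, fell to 67.7 ± 9.94 TPM against 94.2 ± 7.0 TPM in WT (SD, n = 3; limma adjusted p = 0.036), Lap3, a leucine aminopeptidase that also splits cysteinylglycine, to 119 ± 8.28 TPM against 148 ± 8.22 TPM in WT (0.030), and Slc1a5, a glutamine transporter, to 139 ± 6.95 TPM against 162 ± 4.93 TPM in WT (0.038). Ggt7, of the gamma-glutamyltransferase family, rose to 4.13 ± 1.12 TPM against 0.900 ± 0.26 TPM in WT (0.014). Its WT values were 1.2, 0.8 and 0.7 TPM, so it passed the filter only with its KO libraries. Its call is thus no independent support for a rise. Among 17 genes of NADPH supply 2 were lower and 0 higher (7 and 4 without both first replicates). Mthfd2, a mitochondrial folate enzyme, fell to 89.5 ± 20.3 TPM against 140 ± 4.67 TPM in WT (limma adjusted p = 0.032) and Aldh1l2, another, to 1.93 ± 1.1 TPM against 5.0 ± 1.0 TPM in WT (0.040).

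Other genes of the thioredoxin fold and of methionine sulfoxide reduction were called higher in 6 and lower in 1 of 29 (11 and 7 without both first replicates). Tmx4, a thioredoxin-related membrane protein of the endoplasmic reticulum, rose to 357 ± 65.8 TPM against 201 ± 6.11 TPM in WT (SD, n = 3; limma adjusted p = 0.018), Ero1lb, an oxidase that drives disulfide formation there, to 11.3 ± 1.56 TPM against 6.80 ± 1.06 TPM in WT (0.026), and Pdia6, a protein disulfide isomerase, to 894 ± 55.6 TPM against 751 ± 15.3 TPM in WT (0.030). Txnl4a, a spliceosome protein of the same fold, fell to 65.1 ± 3.01 TPM against 76.6 ± 0.25 TPM in WT (0.029). Of 20 genes for selenoproteins or their synthesis 2 were higher and 2 lower (5 and 8 without both first replicates). The selenoprotein gene Selk rose to 259 ± 18.2 TPM against 203 ± 19.2 TPM in WT (limma adjusted p = 0.039) and Selm, another selenoprotein gene, to 163 ± 7.66 TPM against 137 ± 9.32 TPM in WT (0.047), while Ept1, a phospholipid synthesis enzyme, and Sephs1, a relative of selenophosphate synthetase, fell to 44.4 ± 2.47 TPM against 53.4 ± 1.03 TPM in WT and to 23.9 ± 1.1 TPM against 28.4 ± 1.37 TPM in WT (0.029 and 0.046).

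**Figure D4:**
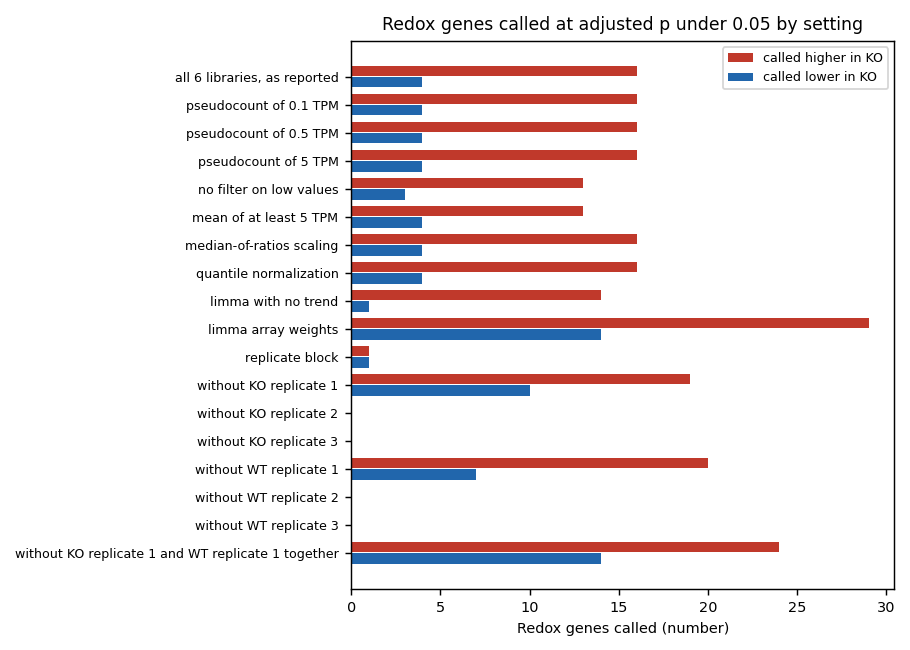
Number of redox genes called higher (red) or lower (blue) in KO at an adjusted p under 0.05 (x axis) under each processing setting (y axis). The bars are at 16 and 4 in the reported fit and at 0 when KO replicate 2, KO replicate 3, WT replicate 2 or WT replicate 3 is left out.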

How the data were processed

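The submitters' processing notes name STAR 2.6.1e for alignment to mm10, featureCounts 1.6.2 for counting, and the trimmers cutadapt 1.9.1 and Trim Galore 0.4.2. Annotation, strand setting and the conversion to TPM are not given there. The authors deposited TPM per gene symbol, rounded to 1 decimal. TPM sums to nearly the same total in each library, so values are shares, and depth is unknown. Libraries were grouped by the labels. Replicates were compared for duplicates, with identical values in no more than 8.48% of tested genes for any pair; none was merged.

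After the filter (13575 genes kept, 22294 dropped), KO and WT were contrasted on log2(TPM + 1), a scale that understates changes of weakly expressed genes. The tool was limma 3.58.1 in R 4.3.3; genotype was the sole term, eBayes used a mean-variance trend, p-values were two-sided and adjusted by Benjamini-Hochberg across every gene kept. The code was first tested on simulated data. The redox genes and lists were chosen with earlier results of these data known.

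The naming rule covered called redox genes, those with a difference of at least 0.3 in size and no overlap, the 2 most abundant per role, and up to 3 called genes per list and direction. Other uncalled redox genes (Gclc, Gstm5, Gstm7, Gstp1, Gstp2, Gstk1, Gstz1, Prdx2, Srxn1, Txnip, Txnrd1, Txnrd2, Txnrd3, Glrx2, Glrx3 and Sod2) were added after their values were seen. Positions and promoters came from RefSeq (GRCm38.p6, the assembly of mm10) and transcripts from GENCODE M21; 11 list symbols were matched through older names. Alternatives covered pseudocounts, filters, scaling, the limma model, the replicate block and single libraries.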

Additional observations from a re-analysis of the deposited data

How the results depend on the processing

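The cause of the changes in counts between settings was not tested. In some settings fewer libraries or genes entered the fit. Among redox genes, against 16 higher and 4 lower, array weights (whose fit stopped before full convergence) gave 29 and 14, dropping both first replicates gave 24 and 14, and the fit with no trend called 14 higher and 1 lower; over all genes array weights called 33.8% and 35.7%, and the fit with no trend 12.4% and 4.27%. Leaving out each replicate in turn gave 0 to 20 higher and 0 to 10 lower. Among the related genes, against 13 higher and 9 lower, the counts were 42 and 42 with array weights and 33 and 34 without both first replicates; a mean of at least 5 TPM gave 7 higher, with 99 instead of 113 genes tested, quantile normalization 17 lower, and leaving out each replicate 0 to 25 higher and 0 to 25 lower. With the replicate number as a block limma called 1 redox gene higher and 1 lower (2.21% and 0.243% over all genes), and 0 related genes higher (21 at an unadjusted p under 0.05) and 2 lower. The labels give these numbers no shared source: deviations of same-numbered libraries correlated at -0.199, -0.145 and -0.164 across genes, and 0 of 6 libraries correlated best with its own number. The pseudocounts of 0.1, 0.5 and 5 TPM and median-of-ratios scaling left all 20 redox calls in place, and under every alternative run each of the 20 called genes that was fitted kept its direction. Depth limits all values to an unknown degree, and values near 0.1 TPM are set by rounding.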

Other observations

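Redox genes with WT replicate 1 at least 1.5-fold outside the range of WT replicates 2 and 3 numbered 4 of 48: Mgst1, Mgst2, Gstm7 and Txnip. Hmox1, which encodes haem oxygenase and was chosen after its values were seen, was at 121.2 TPM in WT replicate 1, 40.4 and 42.9 TPM in WT replicates 2 and 3, and 55.7, 62.4 and 58.3 TPM in KO replicates 1, 2 and 3. Cth, which makes cysteine from cystathionine and was also chosen after its values were seen, was at 28.0 TPM in KO replicate 1, like the 27.4, 25.6 and 32.4 TPM of the WT libraries, but at 7.8 and 8.6 TPM in KO replicates 2 and 3 (limma adjusted p = 0.123).

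Some untested redox genes were listed above 0 only or mainly in KO. Gpx8, a peroxidase of the endoplasmic reticulum, was at 0.3, 0.6 and 0.3 TPM in KO replicates 1, 2 and 3 and at 0.0, 0.1 and 0.0 TPM in WT replicates 1, 2 and 3, and Gpx7, its relative, at 0.1 TPM in each KO library and 0.0 TPM in each WT library. These values are near the rounding step. Gsta2, Gsta3, Gpx2, Gpx5 and Gpx6 were listed at 0 in all 6 libraries.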
